A study of Mus musculus with 11 samples.

Results

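The expression of 9 genes of the tumour necrosis factor (TNF) superfamily, 5 ligands and 4 receptors, was followed across mouse microglia in 3 states. They are the ligands Tnf, Tnfsf8, Tnfsf9, Tnfsf12 and Tnfsf13b and the receptors Tnfrsf1a, Tnfrsf1b, Tnfrsf11a and Tnfrsf13b, 9 of the 16894 genes measured. Tnfsf8 was chosen by its measured level, which is high in transplanted cells, so its values are given as a description with no test. The other 8 genes were named with earlier results of these data known. RNA was sequenced from brain microglia in 11 libraries: 3 from primary microglia kept in culture, 4 from resident microglia and 4 from microglia that had been transplanted and were recovered 3 months later. All libraries carry the genotype label Cx3cr1-GFP, a green reporter at a receptor gene of microglia, and the resident and transplanted cells were sorted by fluorescence. Before the transfer, microglia had been depleted in mice fed chow with 600 mg/kg PLX3397, which blocks the receptor Csf1r and so removes microglia, over 3 cycles. The labels attach that feeding to each library, so whether the donors of resident cells had received it cannot be read from them. Nor do they name the origin of the transplanted cells, or state if each replicate had its own culture or animal. P-values therefore measure only the spread between these libraries, which may be technical.

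Ligands of the TNF superfamily are mostly trimeric proteins of the cell surface, and some are cut free by proteases. Their receptors recruit TRAF adaptors or death domain proteins and lead to NF-kB activation, kinase cascades or cell death. In the brain, microglia are a main source of TNF, and they carry both TNF receptors. BAFF, encoded by Tnfsf13b, and its receptors are best known for the survival of B cells, and RANK, encoded by Tnfrsf11a, for the formation of osteoclasts from myeloid precursors.

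Levels are given as CPM, read counts scaled to a common library total with TMM factors, when libraries are compared, and as the deposited TPM values, which account for gene length, when genes are compared. Libraries held 26705034 to 28219696 expected counts in cultured, 19055655 to 19965631 in resident cells, and between 18692721 and 19761208 in transplanted cells. The summed CPM of 8 microglia markers, P2ry12 among them, ran from 1481 to 1957 in cultured, 36910 to 42910 in resident libraries and 31611 to 39590 in transplanted ones. Of these markers 8 of 8 were lower in cultured than in resident cells in edgeR's test, beside 37.2% of all genes tested. The 6 markers of monocytes and macrophages summed to 69886 to 75314 CPM in cultured, 241 to 383 in resident libraries and 539 to 786 in transplanted ones, nearly all of it Lyz2 (means of 71890, 299 and 616 CPM). The list did not move one way: Ccr2, a chemokine receptor of monocytes, was lower in transplanted than in resident cells (1.52 ± 0.473 against 7.17 ± 1.67 CPM, adjusted p = 0.000301), and Plac8 was lower in cultured than in resident cells. The 6 markers of border-associated macrophages summed to 2884 to 3166, 52.0 to 108 and 15.0 to 25.2 CPM in the same order. Of these, 6 of 6 were lower in transplanted than in resident cells in edgeR's test, beside 5.86% of all genes tested. The 3 neutrophil markers in the table summed to 48.7 to 53.6 CPM in cultured libraries and to at most 0.237 in any sorted library. The 5 endothelial markers summed to 10.1 to 10.4, 47.6 to 64.4 and 27.2 to 32 CPM; between transplanted and resident cells Cdh5, Flt1 and Kdr were higher, Pecam1 was 4.48-fold lower and Cldn5 was too low to test. The 4 B cell markers in the table summed to at most 1.32 CPM in any library. One library stands apart: in resident replicate 1 the summed CPM of 20 immediate early genes, which are induced within minutes by many stimuli, was 13478, against 900 to 1096 in the other resident libraries.

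Promoter sequences are shown for Tnf, the ligand that differed most within 1 group, and for Tnfrsf1b and Tnfrsf13b, receptors that were lower in cultured cells. Each run is the 250 bases before a start of the gene in RefSeq, on GRCm38.p6, read 5′ to 3′ on the gene's strand. They lie at chr17:35202008-35202257 (minus strand, Tnf), chr4:145246871-145247120 (minus strand, Tnfrsf1b) and chr11:61126505-61126754 (plus strand, Tnfrsf13b). The Tnfrsf13b run lies inside the span of its gene (chr11:61126283-61153170), ahead of a later start, and not upstream of the whole gene. Capitals mark matches, on either strand and overlapping ones merged, to a loose form of the NF-kB site (GGG and CC with any 5 bases between them).
Tnf: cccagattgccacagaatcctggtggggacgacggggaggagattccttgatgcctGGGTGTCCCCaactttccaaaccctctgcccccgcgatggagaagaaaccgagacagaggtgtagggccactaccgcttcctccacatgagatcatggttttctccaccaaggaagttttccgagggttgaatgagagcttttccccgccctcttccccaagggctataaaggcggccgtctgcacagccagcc
Tnfrsf1b: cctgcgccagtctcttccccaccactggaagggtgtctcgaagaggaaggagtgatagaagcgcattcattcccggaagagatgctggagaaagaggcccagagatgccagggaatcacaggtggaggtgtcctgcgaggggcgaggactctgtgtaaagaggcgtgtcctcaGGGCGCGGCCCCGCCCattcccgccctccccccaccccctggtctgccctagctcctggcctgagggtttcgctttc
Tnfrsf13b: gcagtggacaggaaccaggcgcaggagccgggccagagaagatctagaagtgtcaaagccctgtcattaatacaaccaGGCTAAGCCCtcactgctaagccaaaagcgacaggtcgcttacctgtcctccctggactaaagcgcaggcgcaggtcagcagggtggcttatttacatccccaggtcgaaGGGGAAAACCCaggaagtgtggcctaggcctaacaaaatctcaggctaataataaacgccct
The match in Tnf, GGGTGTCCCC, reads as a match on both strands and lies 194 to 185 bases before the start. This loose motif occurred in 45.8% of 32851 promoter windows of the same length, so a match is a description of these letters and no more. Windows were at hand for 7 of the 9 genes, not for Tnfsf9 and Tnfsf12, and those of Tnfrsf1a and Tnfrsf11a held the motif as well. The window of Tnfsf8 held none of the 3 motifs searched. GAGGAAGT, a PU.1 type site, was in none of the 7 genes' windows and in 2.44% of all windows. TGANTCA, the AP-1 site, was found as TGAGTCA in 1 window of Tnfsf13b, 127 to 121 bases before its second listed start, and in 6.75% of all windows. The windows of Tnfsf8, Tnfsf13b and Tnfrsf11a also reach into the spans of their genes.

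**Figure D1:**
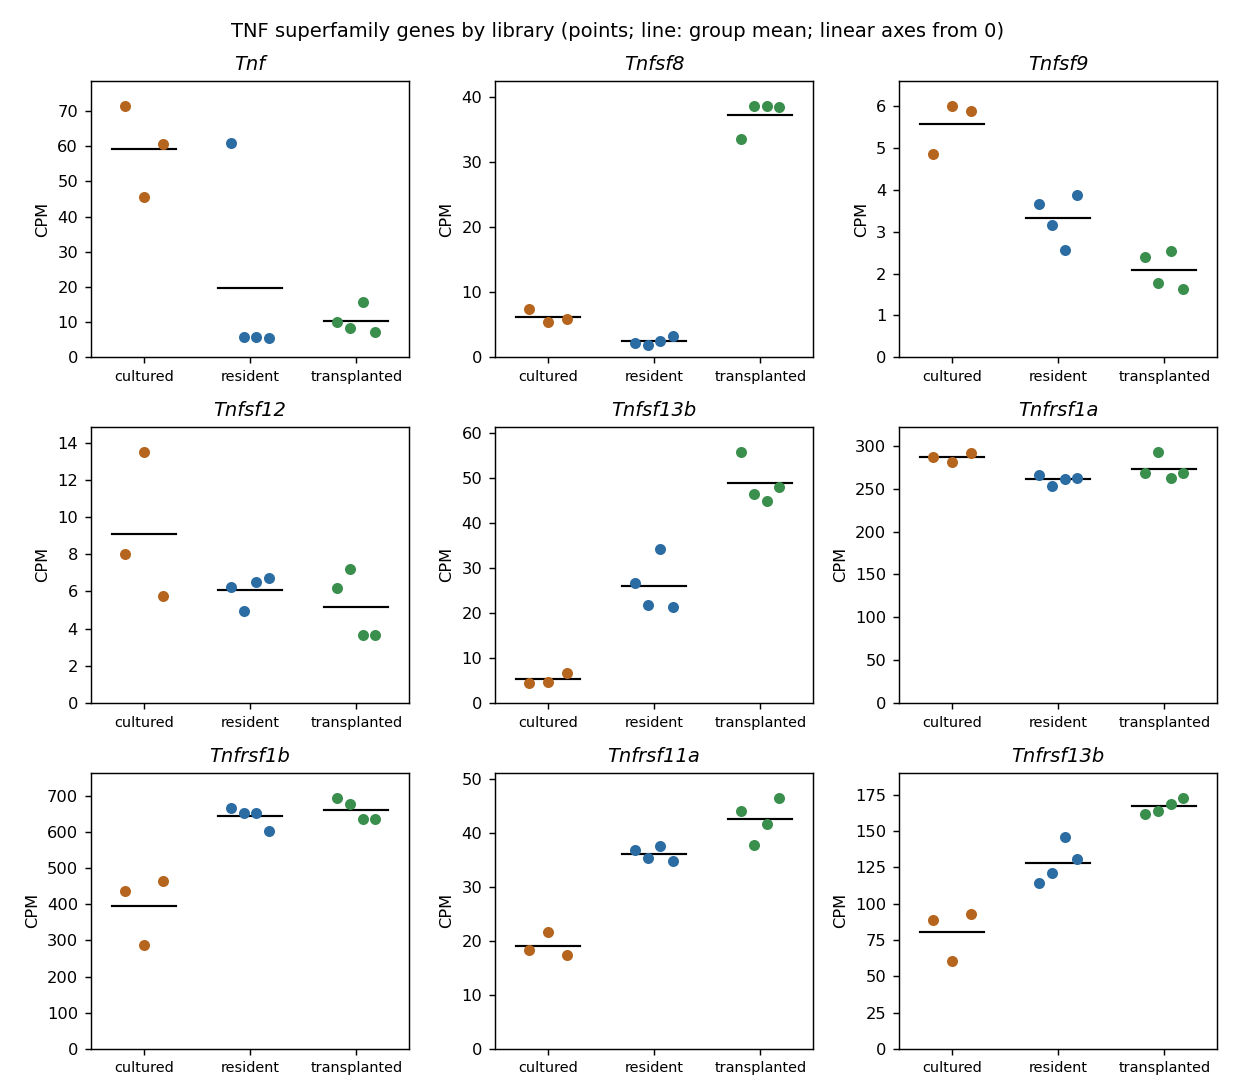
Level of each of the 9 genes in CPM (linear axes from 0), with 1 point per library in 3 cultured, 4 resident and 4 transplanted libraries and a line at the group mean. Transplanted libraries hold 33.6 to 38.6 CPM of Tnfsf8 against 1.91 to 3.33 in resident libraries, and 1 resident library holds 61.0 CPM of Tnf.

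Per length, 3 of the receptors were the most abundant of the 9 genes in sorted cells. In resident cells Tnfrsf1b and Tnfrsf1a, the TNF receptors, led at mean levels of 291 ± 18 and 287 ± 7.85 TPM (SD, n = 4), and their ranges overlapped. Tnfrsf13b followed at 106 ± 11.3 TPM, Tnfsf13b at 37.1 ± 8.97, Tnfrsf11a at 13.7 ± 0.648, Tnfsf12 at 8.84 ± 1.12, Tnfsf9 at 6.99 ± 1.15 and Tnfsf8 at 1.92 ± 0.430. Of these neighbours, the TNF receptors overlapped with each other and Tnfsf12 with Tnfsf9, and no other pair did. Tnf lay at a median of 8.75 TPM in resident cells, between 8.0 and 8.77 in 3 libraries and at 91.9 in replicate 1. The same 4 genes led in transplanted cells, with Tnfrsf1a at 306 ± 7.98, Tnfrsf1b at 304 ± 12.5, Tnfrsf13b at 140 ± 6.12 and Tnfsf13b at 71.4 ± 7.36 TPM (n = 4). Tnfsf8 came next at 29.0 ± 2.00 TPM, above Tnfrsf11a at 16.3 ± 1.45 and Tnf at 15.8 ± 6.19, which overlapped. Tnfsf12 at 7.62 ± 2.5 and Tnfsf9 at 4.53 ± 1.04 TPM were lowest and overlapped as well. Cultured cells had Tnfrsf1a at 149 ± 11.2 TPM (n = 3), above Tnfrsf1b at 85.6 ± 24.3, followed by Tnf at 41.8 ± 10.5, with a range that overlapped that of Tnfrsf13b at 31.7 ± 8.28. Its other 5 genes lay between 2.56 TPM (Tnfsf8) and 6.10 TPM (Tnfsf12). In whole-population RNA such as this, fewer cells of a type and less RNA per cell cannot be told apart.

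Tnf (Entrez 21926, chr17:35199367-35202007, minus strand) encodes the founding cytokine of the family, made as a membrane protein and released by the protease Adam17 (here and below, coordinates of genes are on GRCm38.p6, from RefSeq). Its level was 71.4, 45.6 and 60.7 CPM in the cultured libraries, 61.0, 5.87, 5.82 and 5.52 in the resident libraries and 9.88, 8.38, 15.8 and 7.18 in the transplanted libraries. Cultured libraries were all high, 3 resident libraries were the lowest of the 11, and resident replicate 1 lay within the cultured range in CPM. In TPM resident replicate 1 stood at 91.9, above the cultured libraries at 30.1 to 50.3. Tnf was 5.72-fold lower in transplanted than in cultured cells, at a log2 fold change of -2.51 ± 0.27 (SE; adjusted p = 1.86e-05, edgeR), and -1.38 on the TPM scale (adjusted p = 0.000914, limma). The difference between cultured and resident cells was not called with all libraries (1.61 ± 0.82, adjusted p = 0.104). Without resident replicate 1 it was 3.36 (adjusted p = 2.4e-06, with 2.4e-06 to 0.212 over 14 alternatives). Between transplanted and resident cells the log2 fold change was -0.93 ± 0.76 (adjusted p = 0.468) with all libraries. It was 0.84 without resident replicate 1 (adjusted p = 0.0698), so its sign rests on that library. In resident replicate 1 the immediate early gene Fos stood at 1602 CPM, against 6.76, 1.85 and 1.69 in the other 3, and Egr1 at 2140 against 17.6, 8.28 and 5.61. Their part in the level of Tnf was not tested. Over the 11 libraries the genes with the pattern most like Tnf were Junb and Socs3, with root mean square differences of 0.27 and 0.36 in centred log2 CPM among 11546 genes.

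**Figure D2:**
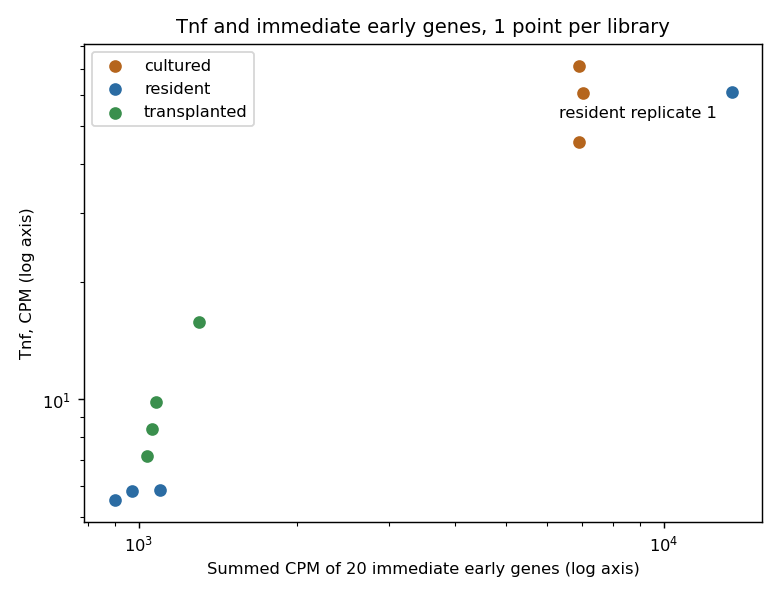
Tnf in CPM against the summed CPM of 20 immediate early genes (both axes log), with 1 point per library, coloured by group. The 3 cultured libraries (6914 to 7026 summed CPM) and resident replicate 1 (13478) lie apart from the other 7 libraries (900 to 1300), in which Tnf was 5.52 to 15.8 CPM.

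Tnfsf8 (Entrez 21949, chr4:63831202-63861508, minus strand) encodes the ligand of CD30, a receptor known from activated lymphocytes. It was chosen for its level in transplanted cells, and its differences are listed without a test. Levels were 7.34, 5.46 and 5.94 CPM in cultured, 2.26, 1.91, 2.51 and 3.33 in resident and 33.6, 38.6, 38.6 and 38.4 in transplanted libraries. In CPM the groups did not overlap, with transplanted cells highest and resident cells lowest. In TPM cultured libraries, at 2.32 to 2.83, overlapped with resident libraries, at 1.45 to 2.48. The mean in transplanted cells, 37.3 ± 2.48 CPM (n = 4), rested on 3175 counts and was 14.9-fold above resident cells (2.5 ± 0.604, n = 4, 217 counts) and 5.98-fold above cultured cells (6.25 ± 0.980, n = 3, 385 counts). On the log2 scale this is 3.90 and 2.58, and cultured cells stood 1.34 above resident cells. On the TPM scale with a pseudocount of 1 these values were 3.37, 3.08 and 0.30. Tnfrsf8, the receptor of this ligand, was low in each group, at 1.99 ± 0.437 CPM in cultured, 0.231 ± 0.0539 in resident and 0.565 ± 0.299 in transplanted cells, and it was under the filter on low counts between the sorted groups. The nearest patterns were those of Lox (0.68) and Ripor2 (0.82). Lox was itself low, at means of 0.994 CPM in cultured, 0.496 in resident and 4.21 in transplanted cells. Since Tnfsf8 was chosen for its level, these distances are a description only and are not ranked against those of the other genes.

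Tnfsf13b (Entrez 24099, chr8:10006229-10036000, plus strand), which encodes BAFF, was highest in transplanted and lowest in cultured cells. It stood at 4.42, 4.62 and 6.67 CPM in cultured, 26.6, 21.8, 34.1 and 21.2 in resident and 55.7, 46.3, 44.9 and 48.0 in transplanted libraries. No library of a group overlapped with another group. The level in transplanted cells, 48.7 ± 4.80 CPM (n = 4), was 1.89-fold that of resident cells at 25.9 ± 5.99 (log2 fold change 0.92 ± 0.15, adjusted p = 0.00251, edgeR). This call held in each of the 15 alternatives, with log2 fold changes of 0.82 to 1.05. Against cultured cells, at 5.24 ± 1.25 CPM (n = 3), the level was 9.32-fold higher (3.22 ± 0.19, adjusted p = 3.9e-07). Cultured cells were 4.88-fold lower than resident cells (-2.29 ± 0.24, adjusted p = 2.18e-05). The TPM scale gave 4.01 and -3.06 for these last differences. Trip6 and Nlrp1a had the most similar patterns, at 0.28 and 0.31.

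Tnfsf9 (Entrez 21950, chr17:57105287-57107758, plus strand), the costimulatory ligand of the receptor Tnfrsf9, was low throughout. Its levels were 4.85, 6.0 and 5.89 CPM in cultured, 3.65, 3.17, 2.56 and 3.88 in resident and 2.40, 1.77, 2.55 and 1.64 in transplanted libraries, from 34 to 122 counts a library. The groups did not overlap, although the highest transplanted and the lowest resident library lay close together. Cultured cells were 1.70-fold higher than resident cells in CPM (0.77 ± 0.22, adjusted p = 0.0118), but the direction was opposite on the TPM scale (-0.28, adjusted p = 0.102). Transplanted cells were 2.65-fold lower than cultured cells (-1.41 ± 0.27, adjusted p = 0.000997), and this call too was absent on the TPM scale (-0.26, adjusted p = 0.199). The alternatives' adjusted p ran from 0.0052 to 0.116 in the first and from 2.25e-06 to 0.218 in the second of these comparisons. Against resident cells, transplanted cells stood at -0.66 ± 0.22 (adjusted p = 0.0734) and were not called. Exons of Tnfsf9 overlap the noncoding gene Gm11110 on the opposite strand over 192 bases, and since the strand of the libraries is not given, reads from this stretch cannot be told apart.

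Tnfsf12 (Entrez 21944, chr11:69686240-69696098, minus strand), which encodes the cytokine TWEAK, passed the test in none of the 3 comparisons. Its levels were 8.02, 13.5 and 5.74 CPM in cultured, 6.22, 4.94, 6.53 and 6.70 in resident and 6.21, 7.18, 3.67 and 3.66 in transplanted libraries. The 3 groups overlapped. Cultured cells stood at 0.59 ± 0.28 against resident cells (adjusted p = 0.0849), which became a call without cultured replicate 3 (0.81, adjusted p = 0.0183). Transplanted cells stood at -0.81 ± 0.36 against cultured cells (adjusted p = 0.0639), and were called lower without cultured replicate 3 (-1.05, adjusted p = 0.0252) or transplanted replicate 2 (-1.02, adjusted p = 0.0378), with DESeq2 (-0.82, adjusted p = 0.0471) and with all 11 libraries in 1 fit (-0.81, adjusted p = 0.0295). On the TPM scale both signs were opposite, at -0.51 (adjusted p = 0.0453) and 0.29 (adjusted p = 0.349), within a range over alternatives of 0.0183 to 0.482 and 0.0252 to 0.357. Between transplanted and resident cells it was -0.23 ± 0.23 (adjusted p = 0.569). Its exons share 731 bases with the readthrough gene Tnfsfm13 on the same strand, so the authors' counting could split its reads, and its values are uncertain to that extent.

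Tnfrsf1a (Entrez 21937, chr6:125349723-125362483, plus strand) encodes the widely expressed TNF receptor with a death domain, and Tnfrsf1b (Entrez 21938, chr4:145212368-145246870, minus strand) the receptor without one that responds best to membrane-bound TNF. Tnfrsf1a varied little, at 287, 281 and 292 CPM in cultured, 266, 253, 262 and 263 in resident and 268, 293, 263 and 268 in transplanted libraries. The cultured libraries all lay above the resident ones, by less than the test could call (0.16 ± 0.09, adjusted p = 0.148). Transplanted cells overlapped with both other groups, at -0.07 ± 0.10 against cultured (adjusted p = 0.577) and 0.07 ± 0.06 against resident cells (adjusted p = 0.512). These signs depend on the scale: in TPM, Tnfrsf1a stood at -0.94 in cultured against resident cells (adjusted p = 8.91e-06) and at 1.04 in transplanted against cultured cells (adjusted p = 7.36e-06), with adjusted p of up to 0.405 and 0.751 over the alternatives. The median of all genes moved by about as much on that scale, to -0.91 and 0.93.

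Tnfrsf1b did separate cultured from sorted cells. Its levels were 437, 288 and 465 CPM in cultured, 666, 653, 653 and 602 in resident and 695, 678, 636 and 636 in transplanted libraries. All cultured libraries lay below all sorted ones, and the sorted groups overlapped. Cultured cells were 1.60-fold lower than resident cells (-0.68 ± 0.17, adjusted p = 0.00494), and transplanted cells were 1.67-fold above cultured cells (0.74 ± 0.17, adjusted p = 0.00261). The same differences were -1.79 and 1.86 on the TPM scale. Transplanted and resident cells stood at 0.04 ± 0.07 (adjusted p = 0.707).

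The ratio of Tnfrsf1b to Tnfrsf1a within a library, in TPM, does not depend on how libraries are scaled to each other. It was 0.627, 0.423 and 0.654 in cultured, 1.03, 1.06, 1.02 and 0.939 in resident and 1.07, 0.951, 0.992 and 0.968 in transplanted libraries. Both receptors were thus at near equal TPM in sorted cells, at mean ratios of 1.01 ± 0.0531 (n = 4) and 0.994 ± 0.0508 (n = 4), while each cultured library lay lower, at a mean of 0.568 ± 0.126 (n = 3). Mean log2 ratios differed by -0.86 between cultured and resident cells (exact two-sided permutation test, p = 0.0571) and by 0.83 between transplanted and cultured cells (p = 0.0571, same exact permutation test). With 3 libraries against 4, 0.0571 is the smallest p the test can give, and 3 such comparisons were made. Transplanted and resident cells differed by -0.03 (exact permutation p = 0.6, where 0.0286 is the smallest possible).

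Tnfrsf11a (Entrez 21934, chr1:105780673-105849444, plus strand), the receptor RANK, was lower in culture as well. Libraries stood at 18.3, 21.7 and 17.3 CPM in cultured, 36.8, 35.4, 37.5 and 34.8 in resident and 44.1, 37.7, 41.6 and 46.5 in transplanted cells. No group overlapped with another, with transplanted replicate 2 closest to the resident range. Cultured cells were 1.87-fold lower than resident cells (-0.90 ± 0.12, adjusted p = 9.46e-05) and transplanted cells 2.23-fold above cultured cells (1.16 ± 0.14, adjusted p = 5.48e-05). In TPM these were -1.64 and 1.87. Transplanted cells stood at 0.24 ± 0.08 against resident cells and were not called (adjusted p = 0.0678), but they were without transplanted replicate 2 (0.28, adjusted p = 0.0331, with 0.0331 to 0.244 over the alternatives). Lacc1 followed the pattern of Tnfrsf11a most closely, at 0.06.

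Tnfrsf13b (Entrez 57916, chr11:61126283-61153170, plus strand) encodes TACI, a receptor for both BAFF and APRIL. It stood at 88.5, 60.7 and 92.8 CPM in cultured, 114, 121, 146 and 131 in resident and 162, 164, 169 and 173 in transplanted libraries. The order of the groups was that of Tnfsf13b, with no overlap. Transplanted cells, at 167 ± 4.87 CPM (n = 4), were 1.31-fold above resident cells at 128 ± 13.7 (0.39 ± 0.08, adjusted p = 0.00988). With all 11 libraries in 1 fit the call ended (0.38, adjusted p = 0.106, the highest of 0.000292 to 0.106 over 15 alternatives). Transplanted cells were 2.08-fold above cultured cells (1.05 ± 0.16, adjusted p = 0.000172) and cultured cells 1.57-fold below resident cells (-0.65 ± 0.16, adjusted p = 0.00511). On the TPM scale these were 2.14 and -1.73.

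**Figure D3:**
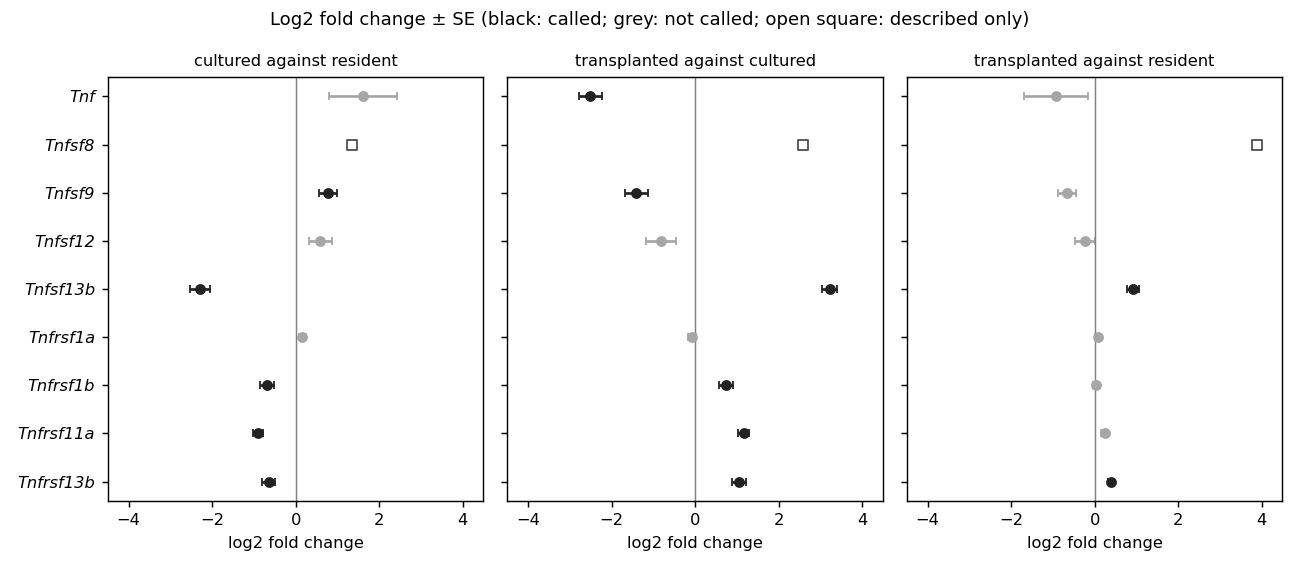
Log2 fold change with its standard error for the 9 genes in each comparison (linear axes, 0 at the line): black, called at an adjusted p under 0.05; grey, not called; open square, Tnfsf8, given with no test. Tnfsf13b is the gene with the largest called change, at 3.22 in transplanted against cultured cells.

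All 9 genes passed the filter on low counts in each comparison. Between cultured and resident cells, 1 of the 8 genes other than Tnfsf8 was higher (Tnfsf9), 4 were lower and 3 were not called, beside 75.1% of all 12406 genes tested that were called (37.9% higher and 37.2% lower). Without cultured replicate 3 or resident replicate 1 the number higher was 2 (without the latter, 71.5% of all genes were called, 36% higher and 35.5% lower). In transplanted against cultured cells 4 were higher, 2 lower and 2 not called, beside 72.4% of all genes (36.9% higher and 35.5% lower). In transplanted against resident cells 2 of 8 were higher, Tnfsf13b and Tnfrsf13b, and none was lower, beside 13% of all 11929 genes (7.17% higher and 5.86% lower). Medians over the 8 genes were -0.25, 0.34 and 0.06 in the 3 comparisons, against -0.02, 0.05 and 0.02 over all genes. At 6 of the 8 genes there was no overlap in CPM between groups in each comparison with cultured cells, beside 75.8% and 73.3% of all genes. Between the sorted groups this held at 4 of 8, beside 19.7%, among them Tnfsf9, whose sorted groups overlapped in TPM. On the TPM scale 0 genes were higher and 6 lower in cultured against resident cells, beside 85.1% of all genes called (17.6% higher and 67.4% lower). There 5 were higher and 1 lower in transplanted against cultured cells, beside 83.4% (67.1% higher and 16.3% lower), and 2 higher and 0 lower in transplanted against resident cells, beside 12.1% (6.69% higher and 5.41% lower). In TPM 20.7% of all calls between cultured and resident cells were higher, against 50.5% with TMM, and 80.4% against 51.0% between transplanted and cultured cells. The comparisons share libraries pairwise, so their values are not independent of each other. The markers of monocytes, border-associated macrophages, neutrophils and endothelial cells given above moved with the groups too, and their part in these differences was not tested.

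The ligands and receptors of the BAFF and APRIL system did not all move one way. Tnfrsf17, which encodes the receptor BCMA that binds both ligands, stood at 18.4, 27.8, 21.6 and 22.2 CPM in resident, 3.76, 9.24, 2.93 and 4.92 in transplanted and 0.432, 0.590 and 0.442 in cultured libraries. The groups did not overlap, and resident cells were highest. Transplanted cells were 4.30-fold lower than resident cells (-2.10 ± 0.30, adjusted p = 0.00123), a call that held in all 15 alternatives at -2.55 to -1.92. Between the sorted groups Tnfsf13b and its receptor Tnfrsf13b were therefore called higher, and Tnfrsf17 lower. Tnfsf13 encodes APRIL, and its exons too overlap those of the readthrough gene Tnfsfm13. It stood at 6.21 ± 0.299 CPM in transplanted against 4.52 ± 1.19 in resident cells (0.46 ± 0.19, adjusted p = 0.134). In cultured cells, at 8.92 ± 4.01 CPM, it was called higher than in resident cells (1.00 ± 0.34, adjusted p = 0.0225), but -0.14 in TPM (adjusted p = 0.623), and not called without cultured replicate 1 (0.98, 0.0517) or 2 (0.59, 0.105) or resident replicate 1 (0.97, 0.0528), 2 (0.98, 0.0533) or 3 (0.82, 0.0656). Tnfrsf13c, the receptor specific to BAFF and named after its values were seen, had 2, 3 and 6 counts in all in cultured, resident and transplanted cells. B cells, which are known to express these receptors, are barely seen in the libraries by the markers given above.

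**Figure D4:**
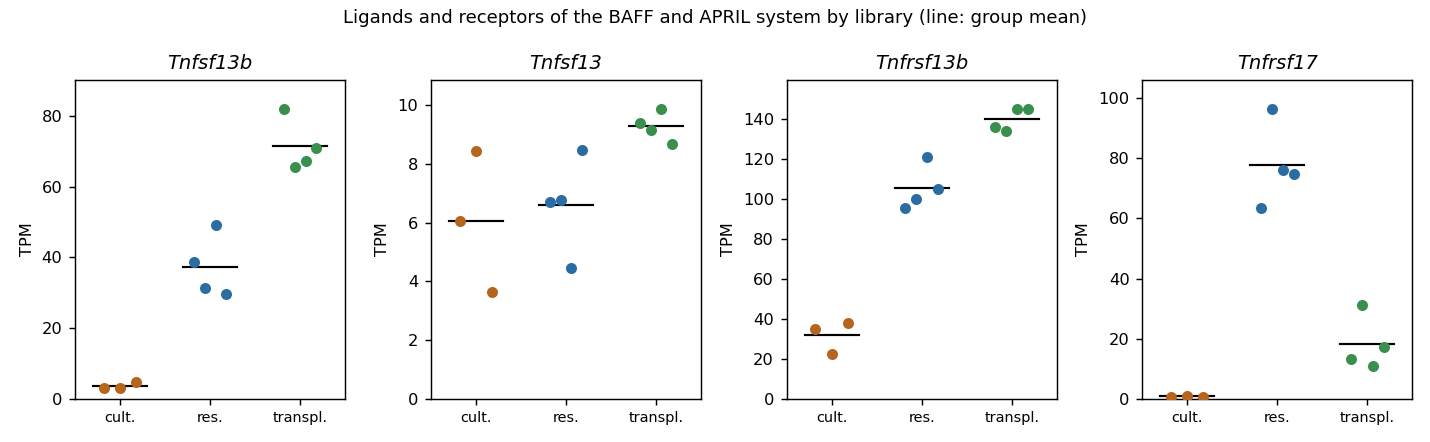
Levels of Tnfsf13b, Tnfsf13, Tnfrsf13b and Tnfrsf17 in TPM (linear axes from 0), with 1 point per library and a line at each group mean. Tnfrsf17 has its highest levels in resident libraries (63.6 to 96.5 TPM), whereas Tnfsf13b and Tnfrsf13b have theirs in transplanted libraries (65.6 to 82.0 and 134 to 145 TPM).

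Of 24 further receptors of the family, 22 were in the table, and 14 could be tested between the sorted groups. Of these, 4 were higher and 1, Tnfrsf17, lower in transplanted cells, beside 7.17% and 5.86% of all genes. Tnfrsf21, the death receptor DR6, had the highest mean of the family in transplanted cells, 394 TPM, and stood at 295 TPM in resident cells, close to the TNF receptors. Its levels were 458, 447, 524 and 463 CPM in resident and 629, 665, 598 and 596 in transplanted libraries. All transplanted libraries were above the resident ones, and the difference of 0.40 ± 0.07 was called (adjusted p = 0.00571), though not with all 11 libraries in 1 fit (0.39, adjusted p = 0.17, the highest of the alternatives, which began at 6.32e-06). Fas, the death receptor of Fas ligand, stood at 2.43 ± 0.587 against 1.23 ± 0.123 CPM (0.98 ± 0.23, adjusted p = 0.0184), and was not called without resident replicate 2 (0.91, 0.0616) or 3 (0.96, 0.0580). Tnfrsf22 and Tnfrsf23 encode decoy receptors of the mouse for the ligand TRAIL. Tnfrsf22 stood at 0.54 ± 0.14 (adjusted p = 0.0253) and Tnfrsf23 at 0.43 ± 0.12 (adjusted p = 0.0424). The first lost its call without resident replicate 1, 3 or 4 or transplanted replicate 3 or 4 (0.40 to 0.55, adjusted p 0.0561 to 0.0875), and on the TPM scale (0.50, 0.0552). The second lost it without resident replicate 1, 2 or 3 or transplanted replicate 1, 2 or 4 (0.34 to 0.47, adjusted p 0.0585 to 0.124), and with all 11 in 1 fit (0.43, 0.124) or no filter on low counts (0.42, 0.0519). The number of receptors called higher was thus 2 without resident replicate 1 or 2 or transplanted replicate 4, and 1 without resident replicate 3. Their median was 0.40, against 0.02 over all genes.

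Between cultured and resident cells, 9 of the 17 further receptors tested were higher and 5 lower, beside 75.1% of all genes called, 37.9% higher and 37.2% lower. In TPM, 6 of 16 tested were higher and 7 lower, beside 17.6% and 67.4%. Tnfrsf9, the receptor of Tnfsf9, was the most extreme at 83.8 ± 12.3 CPM in cultured against 0.0809 ± 0.0236 in resident cells (9.94 ± 0.22, adjusted p = 4.91e-09), and it was lower again in transplanted cells, at 0.151 ± 0.130 (-9.04 ± 0.38 against culture, adjusted p = 3.97e-08). Tnfrsf26 stood at 59.0 ± 21.5 against 1.58 ± 0.457 CPM (5.24 ± 0.32). Tnfrsf12a, the receptor of Tnfsf12 and named after its values were seen, stood at 17.7 ± 1.23 in cultured, 4.41 ± 0.381 in resident and 3.79 ± 0.800 CPM in transplanted cells (2.02 ± 0.15 between the first groups, adjusted p = 2.61e-06). At the other end, Cd27, a receptor known from lymphocytes, had 0 counts in cultured cells, at least 22.6-fold below the resident 1.1 ± 0.307 CPM, taking 3 counts over the group as the floor. Tnfrsf17 followed at -5.49 ± 0.25 (adjusted p = 1.06e-07).

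Of 13 further ligands, 9 were in the table, and 3 could be tested between the sorted groups. In this comparison 7.17% of all genes were higher and 5.86% lower. Ltb, one chain of membrane lymphotoxin, was the only one called there, at 6.18, 8.39, 6.77 and 7.20 CPM in resident and 4.67, 5.70, 3.02 and 3.86 in transplanted libraries. The groups did not overlap (-0.72 ± 0.20, adjusted p = 0.0367). The call was lost without resident replicate 2, 3 or 4 or transplanted replicate 1, 3 or 4 (-0.77 to -0.60, adjusted p 0.0562 to 0.0975), and with all 11 in 1 fit (-0.73, 0.149). Cultured cells had 5 counts of Ltb in all, at -6.34 ± 0.48 against resident cells (adjusted p = 2.84e-06). Tnfsf14, the ligand LIGHT, was the opposite, at 26.3 ± 2.53 CPM in cultured and 0.231 ± 0.179 in resident cells (6.82 ± 0.44, adjusted p = 1.02e-06). Tnfsf10, the ligand TRAIL, stood at -2.46 ± 0.36 in cultured against resident cells (adjusted p = 0.000216). Of the 4 ligands tested in that comparison, 2 were higher and 2 lower in cultured cells, beside 37.9% and 37.2% of all genes. On the TPM scale 1 was higher and 2 were lower, beside 17.6% and 67.4%. In edgeR's test the number higher was 1 without any 1 of the libraries named above that end the call of Tnfsf13.

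**Figure D5:**
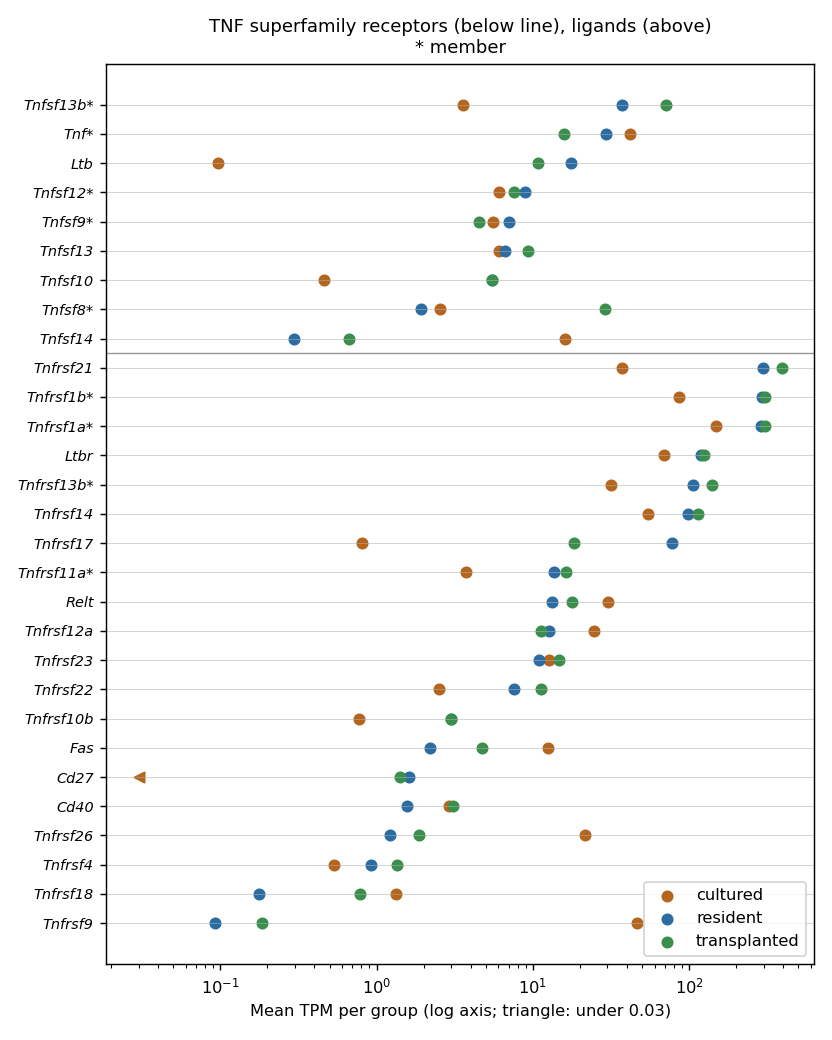
Mean TPM per group (log axis) for the 29 genes of the family, 9 ligands above the line and 20 receptors below it, with a mean of at least 1 TPM in some group. Tnfrsf21, Tnfrsf1b and Tnfrsf1a have the highest means in sorted cells, and Tnfrsf9 is at 46.2 TPM in cultured against 0.0925 in resident cells.

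Genes that act downstream of these receptors were counted from lists drawn up from general knowledge. Of 28 adaptors and signalling proteins, 27 were tested between the sorted groups, and 4 were higher and 0 lower in transplanted cells, beside 7.17% higher and 5.86% lower of all genes (median 0.00, against 0.02). In TPM, 2 were higher and 0 lower, beside 6.69% and 5.41% of all genes. The 4 higher in edgeR's test were Tank, which binds TRAF proteins (0.72 ± 0.15, adjusted p = 0.00973), Traf3 (0.52 ± 0.14, adjusted p = 0.0301), Tab1 (0.43 ± 0.12, adjusted p = 0.0478) and Birc3 (0.33 ± 0.07, adjusted p = 0.0142). Tab1 and Birc3 were named after their values were seen. Tank was called in each of the 15 alternatives. Birc3 was not called without resident replicate 3 (0.28, 0.065) or 4 (0.30, 0.0574), nor with all 11 libraries in 1 fit (0.32, 0.133). Traf3 lost its call without any 1 resident library or transplanted replicate 3 or 4 (0.41 to 0.55, adjusted p 0.0602 to 0.0961), with all 11 in 1 fit (0.52, 0.0709) and on the TPM scale (0.44, 0.145), and Tab1 without any 1 library except transplanted replicate 2 (0.29 to 0.46, adjusted p 0.0556 to 0.137), with all 11 in 1 fit (0.42, 0.0748) and on the TPM scale (0.42, 0.0564). The number called higher was 1 without resident replicate 3 or 4, and 2 without resident replicate 1 or 2 or transplanted replicate 3 or 4. It was 3, with 1 lower, without transplanted replicate 1, and 5, with 0 lower, without transplanted replicate 2. In cultured against resident cells 11 were higher and 13 lower, beside 37.9% and 37.2% of all genes. Mlkl, the effector of necroptosis, stood at 4.47 ± 0.26 (adjusted p = 4.79e-07), Traf5 at -3.31 ± 0.16 (adjusted p = 1.77e-07) and the kinase gene Map3k14 at -2.68 ± 0.15 (adjusted p = 4.19e-07). On the TPM scale 2 of 27 tested were higher and 19 lower, beside 17.6% and 67.4% of all genes.

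Of 17 genes of NF-kB and its inhibitors and targets, 6 were higher and 0 lower in transplanted than in resident cells, beside 7.17% and 5.86% of all genes (median 0.11). They were the inhibitor family member Bcl3 (2.18 ± 0.47, adjusted p = 0.0122), the subunit Relb (0.68 ± 0.17, adjusted p = 0.0291), Tnfaip2 (0.66 ± 0.17, adjusted p = 0.0340), Icam1 (0.52 ± 0.08, adjusted p = 0.00217), Tnfaip8 (0.51 ± 0.10, adjusted p = 0.00616) and Tnip1 (0.48 ± 0.11, adjusted p = 0.0185). Icam1, Tnfaip2, Tnfaip8 and Tnip1 were named after their values were seen. Bcl3 and Tnfaip8 were called in each of the 15 alternatives. Relb and Tnfaip2 lost their calls without any 1 resident library or transplanted replicate 3 or 4 (0.51 to 0.72, adjusted p 0.0511 to 0.0987). Tnip1 was not called without resident replicate 2 (0.42, 0.0621) or 4 (0.43, 0.0611), and Icam1 not with all 11 libraries in 1 fit (0.51, 0.0839). The count was 3 without resident replicate 2 or 4, and 4 without resident replicate 3 or transplanted replicate 3 or 4. It was 5 without resident replicate 1 and 7 without transplanted replicate 2, both with a gene called beyond the 6 named. Icam1, an adhesion molecule induced by TNF in many cells, stood at 250, 268, 273 and 257 CPM in resident and 325, 397, 370 and 402 in transplanted libraries. The groups did not overlap, and resident replicate 1 was within the range of its group. Nfkbiz and Zfp36, by contrast, followed the library that stands apart, with Zfp36 at 2290 CPM in resident replicate 1 against 214, 202 and 178 in the others. In cultured against resident cells 9 were higher and 3 lower, beside 37.9% and 37.2% of all genes, and together near the 75.1% called. They ran from Bcl3 at 4.62 ± 0.29 (adjusted p = 9.1e-07) to Nfkbie at -1.79 ± 0.17 (adjusted p = 1.22e-05). On the TPM scale 3 were higher and 11 lower, beside 17.6% and 67.4% of all genes.

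Of 9 genes for the release and processing of TNF, 8 were tested between transplanted and resident cells. Of these, 1 was higher and 1 lower, beside 7.17% and 5.86% of all genes. Without transplanted replicate 3, 2 were higher and 0 lower. In TPM, 2 were higher and 1 lower, beside 6.69% and 5.41%. In neither of these settings was Rhbdf2 among the genes called higher. Rhbdf2, which carries Adam17 to the cell surface, stood at 0.63 ± 0.17 (adjusted p = 0.0363), and Frmd8, which stabilises that complex, at -0.33 ± 0.09 (adjusted p = 0.0323). Neither was called without resident replicate 1 or 3 or transplanted replicate 4. Rhbdf2 was also lost without resident replicate 2 or 4 or transplanted replicate 3 (0.48 to 0.67 over these 6 libraries, adjusted p 0.0677 to 0.108) and on the TPM scale (0.59, 0.0614), and Frmd8 without transplanted replicate 3 (-0.35 to -0.29 over its 4 libraries, adjusted p 0.0588 to 0.079) and with all 11 in 1 fit (-0.34, 0.189). In cultured against resident cells, 2 of 8 tested were higher and 3 lower, beside 37.9% and 37.2% of all genes. In TPM these were 2 and 6, beside 17.6% and 67.4%. The number lower was 5 without cultured replicate 3. Rhbdf2 was higher in cultured than in resident cells, at 114 ± 6.31 against 24.7 ± 2.30 CPM (2.22 ± 0.11, adjusted p = 1.93e-07). Its relative Rhbdf1 (-5.73 ± 0.50, adjusted p = 6.26e-06) and Adam17 itself (-0.56 ± 0.17, adjusted p = 0.0128) were lower.

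RANK is known to drive the osteoclast programme. Of 7 of its genes tested between cultured and resident cells, 5 were higher in cultured cells and 2 lower, beside 37.9% and 37.2% of all genes. The higher ones included the proton pump subunit Atp6v0d2 (215 ± 42.2 against 0.0582 ± 0.0587 CPM, 11.74 ± 0.34, adjusted p = 1.04e-08) and the phosphatase Acp5 (8.20 ± 0.53, adjusted p = 1.02e-06). The lower ones were the integrin Itgb3 (-7.99 ± 0.26, adjusted p = 1.95e-08) and the transcription factor Nfatc1 (65.1 ± 10.4 against 295 ± 27.0 CPM, -2.16 ± 0.15, adjusted p = 1.44e-06). Tnfrsf11a itself was lower in cultured cells, as given above. Between transplanted and resident cells only 2 of the 10 genes listed could be tested and 0 were called, in a comparison where 13% of all genes were called. These were Nfatc1 at 0.01 ± 0.08 (adjusted p = 0.973) and Itgb3 at -0.24 ± 0.18 (adjusted p = 0.427).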

How the data were processed

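RNA was extracted with TRIzol, and 1 ng per library was made into cDNA with a Smart-Seq protocol, per the labels' protocols; the strand is not given. The deposited table gives, per the file headers, an expected count, a TPM and an FPKM value per gene and library, all computed by the authors. HISAT, Bowtie2 and GRCm38.p6 are named in the submitters' processing notes; the read counter is not given in the sources used here. Of the expected counts, 81.5% to 84.9% per library were whole, and they were rounded to whole numbers. Symbols were found in RefSeq for 16845 of 16894 genes.

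Each pair of groups, taken from the library titles, was fitted with edgeR 4.0.16 (R 4.3.3; TMM scaling, filterByExpr, quasi-likelihood test). A gene was called where p, adjusted by Benjamini and Hochberg's method across the whole comparison, was under 0.05, and all adjusted p-values come from this test unless another is named. Fold errors are standard errors; levels are mean ± SD of CPM scaled with TMM over 11 libraries. The deposited TPM values served to compare genes and, as log2(TPM + 1) or log2(TPM + 0.1) of genes with a mean of at least 0.5, in limma 3.58.1, which understates changes of low genes. DESeq2 1.42.0, another scaling, no filter, all 11 libraries in 1 fit, a replicate block and leaving out each library were the other alternatives; FPKM entered only as an alternative for the receptor ratio, and the deposited FPKM values were not used otherwise. The script for the tests was checked on simulated counts.

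The 9 genes and all gene lists were chosen with earlier results of these data known. Every one of the 9 is described. Per list and comparison, the 2 genes with the largest and the 2 with the smallest log2 fold change could be named, and any other ligand or receptor of the family called between the sorted groups. Exceptions are marked as named after their values were seen. The pattern most like a gene's was the smallest root mean square difference in log2 CPM (prior count 1), centred per gene, among genes with a mean of at least 1 CPM.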

Additional observations from a re-analysis of the deposited data

Results flagged for a closer look

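In 18 sets of 4 libraries, the CPM of the 8 genes other than Tnfsf8 and the receptor ratio in resident and in transplanted cells, the gap between an extreme library and its nearest neighbour, as a share of the group's range, was set against Dixon's critical value for 4 libraries. Chance alone passes it in about 1 of 20 such sets, and 1 passed. Tnf in resident replicate 1 stood at 61.0 CPM, with a gap of 0.994 of the range above the other 3 libraries at 5.52 to 5.87.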

How the results depend on the processing

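The TPM scale, on which the median of all genes moved to -0.91 and 0.93 in the comparisons with cultured cells, turned the sign of 3 of the 9 genes. With pseudocounts of 1 and 0.1, cultured against resident cells stood at -0.28 and -0.32 for Tnfsf9, -0.51 and -0.59 for Tnfsf12, and -0.94 and -0.95 for Tnfrsf1a. Transplanted against cultured cells stood at 0.29 and 0.33 for Tnfsf12 and 1.04 and 1.04 for Tnfrsf1a. Tnf in transplanted against resident cells turned to 0.84 without resident replicate 1, and lay between -1.25 and 0.84 over the fits without 1 library. With all 11 libraries in 1 fit, 912 genes were called between transplanted and resident cells, against 1554 in the pair alone; the cause was not tested. Leaving out 1 library gave 8663 to 10062 genes for cultured against resident, 8321 to 9442 for transplanted against cultured and 1039 to 1753 for transplanted against resident cells. Deviations of same-numbered libraries correlated at -0.04 to 0.08, against -0.1 to 0.15 for libraries of other numbers. The labels do not say if same-numbered libraries share an animal, day or batch, and these values cannot decide it. With the replicate block 8455, 8155 and 1299 genes were called, Tnf was called between cultured and resident cells (2.20, adjusted p = 0.016), and Tnfsf9 was not (0.86, adjusted p = 0.0532). Between the sorted groups the block also ended the calls of Fas (0.96, 0.0564), Tnfrsf23 (0.44, 0.0767), Traf3 (0.50, 0.0621), Tab1 (0.41, 0.0986), Tnfaip2 (0.65, 0.0882) and Rhbdf2 (0.60, 0.0734). The differences of the receptor ratio with cultured cells kept their sign under each alternative run; their p could not fall under 0.05 in any of them, so it says nothing of stability. Counts without resident replicate 1, and without each other library, for the gene lists were added after seeing the data. Depth limits the low genes most: Tnfsf9 rested on 34 to 122 counts a library.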
